A study of Mus musculus with 10 samples.

Results

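The heat shock response genes Hsf1, Bag3, Hspa1a, Hspa1b, Hspa8, Hsph1, Dnajb1, Hspb1, Hspb8 and Hsp90aa1 were followed in mouse liver after editing of Bap1, a nuclear deubiquitinase gene, and after injury with carbon tetrachloride (CCl4). They were the 10 rows, of 55291 gene symbols in the table, whose symbol was on a list naming Hsf1 and its chaperone targets, and all 10 were among the 17015 genes that passed the filter on low counts. The mice were females of 16 to 20 weeks with the Cas9 Lox-Stop-Lox allele, in which Cas9 is made only after Cre recombinase has acted. Each had received AAV8-U6-sgRNA-TBG-Cre, a virus that carries a guide RNA and drives Cre from the hepatocyte promoter TBG, with either a non-targeting guide (NTC) or a guide against Bap1 (sgBap1). After 10 days they were given CCl4, diluted 1:9 in olive oil and injected into the abdomen at 10 µL per g of body weight, or olive oil alone (Veh), and RNA was made from the right liver lobe 48 hours later. The groups were NTC-Veh (n = 2), sgBap1-Veh (n = 2), NTC-CCl4 (n = 3) and sgBap1-CCl4 (n = 3), and the controls shared the Cas9 allele, the virus and Cre with the edited livers. Editing was driven in hepatocytes, while the RNA came from every cell of the lobe, edited or not.

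HSF1 is the transcription factor that binds heat shock elements in front of chaperone genes when unfolded protein builds up. The chaperones it drives work as a relay: small heat shock proteins hold unfolded protein, HSP70 refolds it with the help of J-domain proteins and nucleotide exchange factors, and HSP90 finishes the folding of kinases and receptors. In liver, CCl4 is turned into a reactive radical by cytochrome P450 in the hepatocytes around the central vein, which damages membranes and proteins there.

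Depth was 33047900 to 52199900 estimated counts per liver, and levels are given as CPM, the counts of a gene scaled to a common library total, after TMM scaling, which corrects for a few abundant genes taking unequal shares of a library. Bap1 checked the labels: the NTC-Veh livers both had 34.8 CPM, the sgBap1-Veh livers 17.5 to 19.5 CPM, the NTC-CCl4 livers 29.5 to 31.5 CPM and the sgBap1-CCl4 livers 17 to 21.8 CPM, with no overlap between NTC and sgBap1. The 9 hepatocyte markers together held 67964 CPM or more in every liver, and 8 of the 9 were lower in NTC-CCl4 than in NTC-Veh. In whole-tissue RNA, fewer cells of a type and less RNA per cell cannot be told apart. Liver 2 of sgBap1-CCl4 stood apart: its 6 fat cell markers summed to 401 CPM against at most 30.5 CPM in any other liver. Adipoq, which encodes a hormone of fat cells, had 2124 counts there and at most 2 in the other 9 livers. The 6 stellate cell and fibroblast markers also summed highest in that liver, at 1437 CPM, against 505 to 686 CPM in the other CCl4 livers.

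Per kilobase of exon, which allows levels to be compared between genes, Hspa8 was the most abundant of the 10 in every group, at 299 CPM per kb in NTC-Veh and 389 CPM per kb in sgBap1-CCl4. In the vehicle groups Hspb8 and Hsp90aa1 followed, at 94.5 and 36.6 CPM per kb in NTC-Veh. After CCl4 that order turned, with Hsp90aa1 at 80.3 and Hspb8 at 65.5 CPM per kb in NTC-CCl4. Hsp90aa1 (91.0 CPM per kb) and Hspb8 (84.9 CPM per kb) were close in sgBap1-CCl4. Hspa1a was the least abundant member in the other 3 groups, at 0.246 CPM per kb in NTC-Veh, and Hsf1, at 2.60 CPM per kb, was the least abundant in sgBap1-CCl4, where Hspa1a reached 2.84 CPM per kb with an SD of 1.98 (n = 3). These last levels did not differ beyond the spread of Hspa1a.

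**Figure D1:**
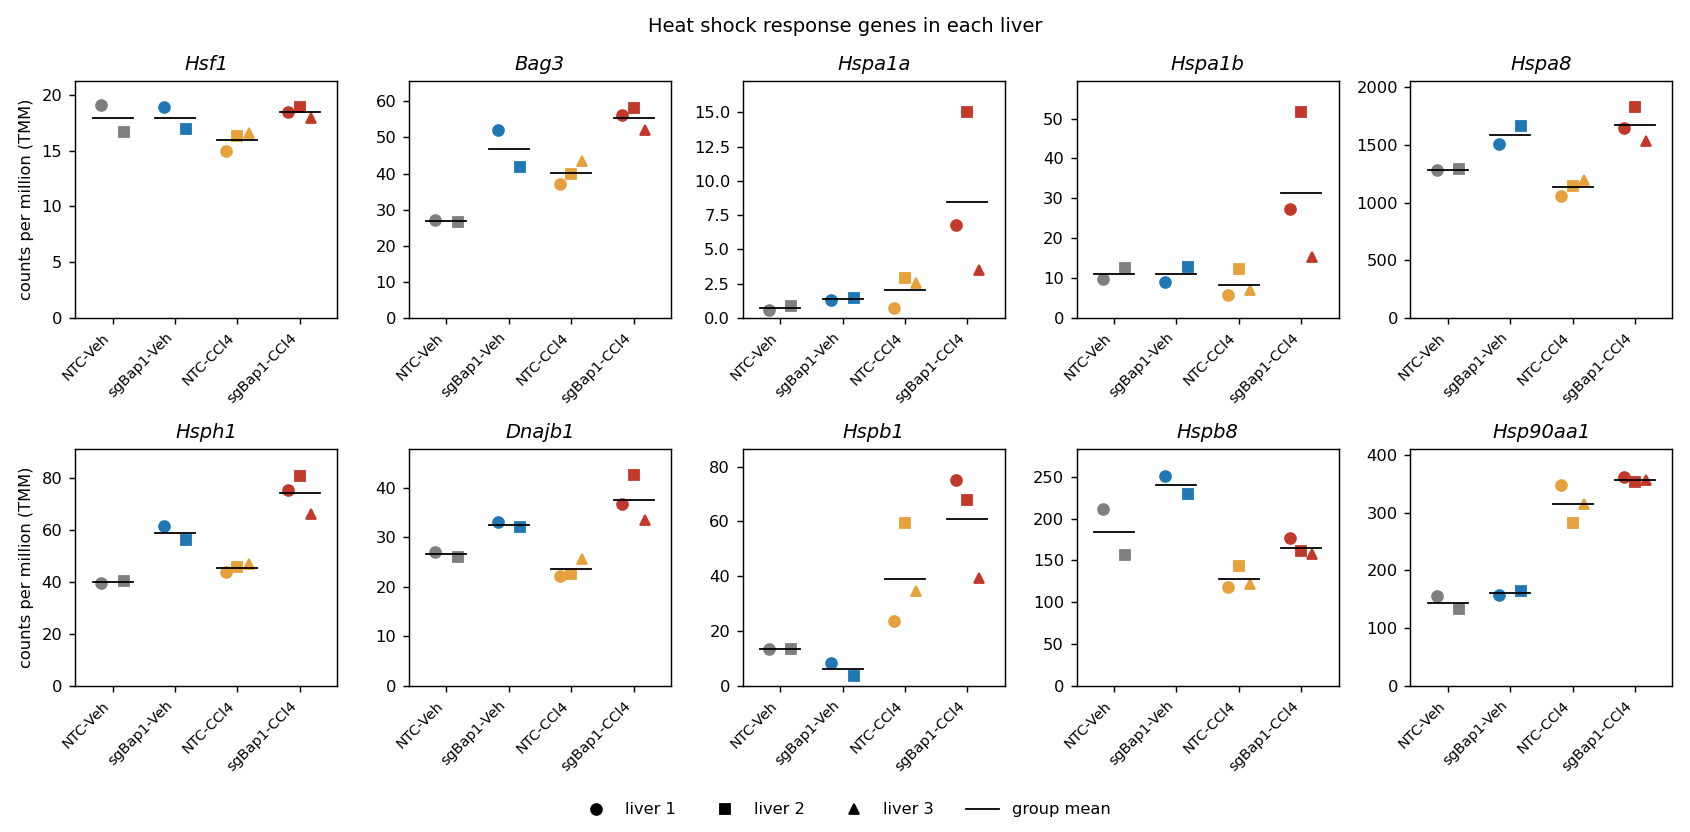
CPM (TMM-scaled, linear axis from 0) of the 10 heat shock response genes, 1 panel per gene. Each symbol is a liver, with its shape giving the replicate number, and the line is the group mean; Hspa1b, for example, lay between 5.63 and 12.8 CPM in the first 3 groups and between 15.2 and 51.7 CPM in sgBap1-CCl4.

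Promoter sequence was taken from RefSeq (GRCm38.p6) as the 250 bases before a transcription start, and a window was matched for 7 of the 10 members (Bag3, Hspa1a, Hspa1b, Hsph1, Dnajb1, Hspb1 and Hspb8). The heat shock element is built from inverted repeats of GAA, and the words searched on both strands were GAANNTTCNNGAA and TTCNNGAANNTTC, which are each other's reverse complement and were allowed to overlap. The exact 3-unit words were in 0 of the 7 members and in 0.514% of the 27025 genes with a window. With at most 1 mismatch they were in 4 of the 7 members, Hspa1a, Hspa1b, Hsph1 and Hspb1, and in 6.86% of all genes. No match was found for Bag3, Dnajb1 and Hspb8 in these windows, which says only that these letters were not there. The 4 stretches are shown because they come within 1 mismatch of the letters that HSF1 is known to recognise. Capitals mark the bases covered by a match, 5′ to 3′ on the strand of the gene.
Hspa1a, chr17:34972233-34972290, minus strand: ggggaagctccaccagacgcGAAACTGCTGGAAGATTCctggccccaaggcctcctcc
Hspa1b, chr17:34959315-34959372, minus strand: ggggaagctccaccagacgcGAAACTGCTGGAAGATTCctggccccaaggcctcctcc
Hsph1, chr5:149636346-149636375, minus strand: gaatctTTCTCGAAGGCTCGAGAAgaagga
Hspb1, chr5:135887782-135887834, plus strand: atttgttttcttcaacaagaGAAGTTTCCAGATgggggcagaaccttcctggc
The Hspa1a and Hspa1b stretches were the same letter for letter, with the element 114 to 97 bases before each start, and 247 of the 250 bases of their windows were identical. The Hsph1 element lay 33 to 16 bases before 1 of its 2 RefSeq starts and 54 to 37 bases before the other, inside the gene as GENCODE draws it, and the Hspb1 element 117 to 105 bases before the start. Each matched stretch is a description of the sequence, not evidence of binding.

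Hsf1 (chr15:76477422-76501913, plus strand, on GRCm38 as for all genes below), the regulator itself, was nearly level. It had 19.1 and 16.7 CPM in NTC-Veh, 18.9 and 16.9 CPM in sgBap1-Veh, 15.0, 16.3 and 16.6 CPM in NTC-CCl4, and 18.5, 18.9 and 17.9 CPM in sgBap1-CCl4. The sgBap1-CCl4 livers were all above the NTC-CCl4 livers, and the vehicle groups overlapped. The log2 difference between sgBap1-CCl4 and NTC-CCl4 was 0.21 ± 0.09 (SE), with an adjusted p of 0.332 by edgeR's quasi-likelihood test with Benjamini-Hochberg adjustment over all 17015 genes, the test used for every adjusted p below. The messenger RNA of Hsf1 does not report the activity of the protein, which is controlled after translation.

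Hspa8 (chr9:40800984-40810087, plus strand) encodes the constitutive HSP70 of the cytosol. It had 1284 and 1291 CPM in NTC-Veh, 1508 and 1664 CPM in sgBap1-Veh, 1059, 1143 and 1193 CPM in NTC-CCl4, and 1648, 1830 and 1539 CPM in sgBap1-CCl4. All sgBap1 livers were above all NTC livers, whatever the treatment. Neither difference passed the test: the log2 difference was 0.30 ± 0.14 in vehicle (adjusted p = 0.406) and 0.56 ± 0.11 in CCl4 (adjusted p = 0.0737). Of its 50-base stretches 39.4% also occur in other annotated genes, chiefly the pseudogene Gm15459. The sum with 2 of these genes, Gm15459 and Gm8355, gave 0.56 in CCl4 (adjusted p = 0.0740).

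Hspa1a (chr17:34969190-34972156, minus strand) and Hspa1b (chr17:34956436-34959238, minus strand) are the neighbouring stress-inducible HSP70 genes. Hspa1a had 0.599 and 0.859 CPM in NTC-Veh, 1.32 and 1.42 CPM in sgBap1-Veh, 0.725, 2.93 and 2.55 CPM in NTC-CCl4, and 6.81, 15.0 and 3.53 CPM in sgBap1-CCl4. Hspa1b had 9.77 and 12.4 CPM in NTC-Veh, 9.10 and 12.8 CPM in sgBap1-Veh, 5.63, 12.2 and 6.90 CPM in NTC-CCl4, and 27.2, 51.7 and 15.2 CPM in sgBap1-CCl4. For both genes the 3 sgBap1-CCl4 livers were the highest of the 10, with liver 2 far above the other two, and NTC-CCl4 livers overlapped with vehicle livers. Both genes rose with CCl4 in sgBap1 livers, Hspa1a by 2.62 ± 0.74 on the log2 scale (adjusted p = 0.0155) and Hspa1b by 1.52 ± 0.55 (adjusted p = 0.0439). Hspa1b was no longer called without sgBap1-CCl4 liver 2, at 0.96 (adjusted p = 0.0986), nor without any 1 of 6 other livers, and Hspa1a was no longer called without sgBap1-Veh liver 1 (adjusted p = 0.0913) or liver 2 (adjusted p = 0.0810). With no filter on low counts neither was called (Hspa1a adjusted p = 0.0557, Hspa1b adjusted p = 0.11), and with only the groups compared Hspa1b was not (adjusted p = 0.062). In NTC livers the difference with CCl4 was 1.5 ± 0.77 for Hspa1a (adjusted p = 0.133) and -0.42 ± 0.53 for Hspa1b (adjusted p = 0.539); without NTC-CCl4 liver 1 that of Hspa1a was 1.91 and called (adjusted p = 0.0385). Between sgBap1-CCl4 and NTC-CCl4 the log2 differences were 2.03 ± 0.60 for Hspa1a and 1.92 ± 0.47 for Hspa1b, about 4.08 and 3.79 times, and neither passed the test (adjusted p = 0.204 and 0.151).

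Hspa1a and Hspa1b share 58.8% and 62.3% of their 50-base stretches with each other, so that how the authors' counting split reads between them is uncertain. Hspa1a also overlaps Gm20481, annotated on the other strand. As 1 gene, the pair had 10.4 and 13.2 CPM in NTC-Veh, 10.4 and 14.3 CPM in sgBap1-Veh, 6.35, 15.2 and 9.45 CPM in NTC-CCl4, and 34.1, 66.6 and 18.7 CPM in sgBap1-CCl4. The summed counts rose 3.24 times with CCl4 in sgBap1 livers (adjusted p = 0.0368) and had a log2 difference of 1.94 ± 0.50 between sgBap1-CCl4 and NTC-CCl4 (adjusted p = 0.165). The inducible pair was small beside Hspa8: per kilobase it was 1.05% to 1.57% of Hspa8 in the vehicle livers, 0.914% to 2.02% in NTC-CCl4 and 3.14%, 5.52% and 1.85% in the sgBap1-CCl4 livers.

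**Figure D2:**
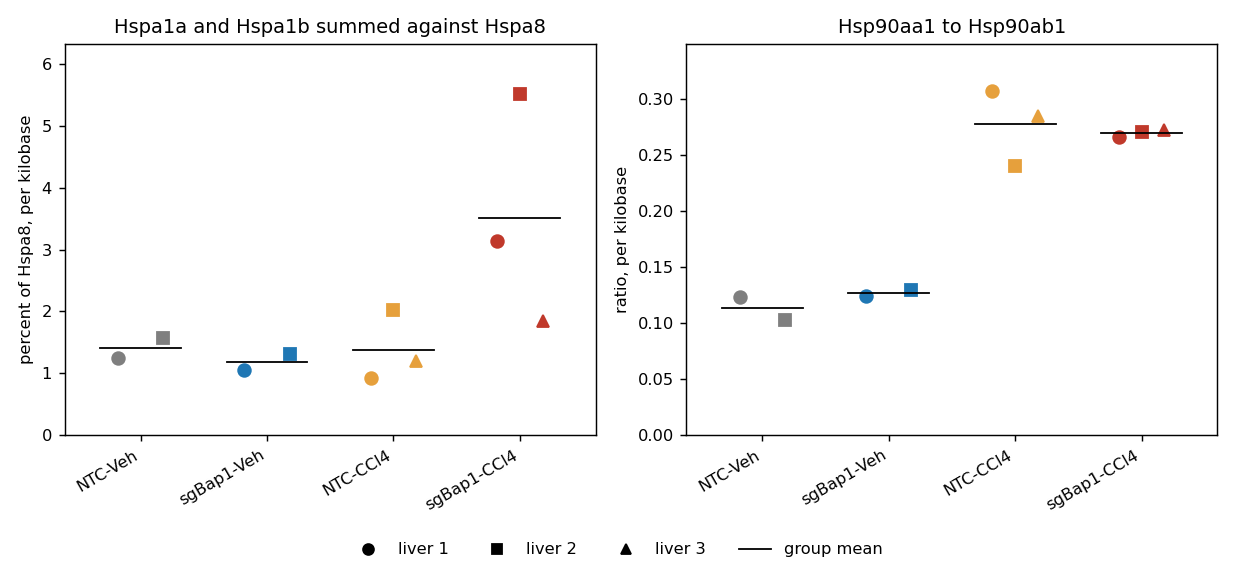
Left, Hspa1a and Hspa1b summed as a percent of Hspa8, and right, the ratio of Hsp90aa1 to Hsp90ab1, both per kilobase of exon, for each liver (symbols, shape by replicate number) with the group mean (line). The inducible HSP70 pair reached 5.52% of Hspa8 in sgBap1-CCl4 liver 2, while the HSP90 ratio was between 0.240 and 0.307 in all CCl4 livers and between 0.103 and 0.129 in all vehicle livers.

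Bag3, Hsph1 and Dnajb1 work with HSP70: BAG3 and HSPH1 (HSP110) release nucleotide from it, BAG3 also links it to autophagy, and DNAJB1 hands it substrates. Bag3 (chr7:128523616-128546981, plus strand) had 27.2 and 26.7 CPM in NTC-Veh, 52.0 and 41.7 CPM in sgBap1-Veh, 37.1, 40.0 and 43.6 CPM in NTC-CCl4, and 56.2, 58.1 and 52.2 CPM in sgBap1-CCl4. The NTC-Veh livers were the lowest and the sgBap1-CCl4 livers the highest, and sgBap1-Veh overlapped only with NTC-CCl4. The sgBap1-Veh level of Bag3 exceeded that of NTC-Veh by 0.80 ± 0.12 on the log2 scale (1.74 times, adjusted p = 0.0309), and it rose with CCl4 in NTC livers by 0.58 ± 0.11 (1.49 times, adjusted p = 0.00127). Its difference between sgBap1-CCl4 and NTC-CCl4 was 0.46 ± 0.10 (adjusted p = 0.0807), and with CCl4 in sgBap1 livers 0.24 ± 0.11 (adjusted p = 0.0762). The annotated gene 2610306O10Rik lies within the span of Bag3 on the same strand, and 0 of the 50-base stretches of Bag3 transcripts occur in any other annotated gene.

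Hsph1 (chr5:149614287-149636376, minus strand) had 39.7 and 40.5 CPM in NTC-Veh, 61.5 and 56.1 CPM in sgBap1-Veh, 43.8, 45.7 and 46.7 CPM in NTC-CCl4, and 75.2, 80.8 and 66.0 CPM in sgBap1-CCl4. No 2 groups overlapped. It was higher in sgBap1-CCl4 than in NTC-CCl4 by 0.71 ± 0.08 on the log2 scale (1.63 times, adjusted p = 0.0200) and rose with CCl4 in sgBap1 livers by 0.33 ± 0.09 (1.26 times, adjusted p = 0.0126), a call that was lost without sgBap1-Veh liver 2 (adjusted p = 0.102). In vehicle livers the difference of 0.55 ± 0.10 was just outside the threshold (adjusted p = 0.0518).

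Dnajb1 (chr8:83608193-83612653, plus strand) had 27.1 and 26.1 CPM in NTC-Veh, 33.0 and 32.1 CPM in sgBap1-Veh, 22.2, 22.6 and 25.7 CPM in NTC-CCl4, and 36.8, 42.5 and 33.5 CPM in sgBap1-CCl4. The groups again did not overlap, and NTC-CCl4 was the lowest. Dnajb1 was higher in sgBap1-CCl4 than in NTC-CCl4 by 0.68 ± 0.10 on the log2 scale (1.60 times, adjusted p = 0.0299). Its other differences did not pass: 0.29 ± 0.12 between genotypes in vehicle (adjusted p = 0.351), -0.18 ± 0.11 with CCl4 in NTC livers (adjusted p = 0.188) and 0.21 ± 0.11 with CCl4 in sgBap1 livers (adjusted p = 0.127).

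The small heat shock proteins Hspb1 (chr5:135887919-135889563, plus strand) and Hspb8 (chr5:116408491-116422864, minus strand) hold unfolded protein, HSPB8 as a partner of BAG3. Hspb1 had 13.4 CPM in both NTC-Veh livers, 8.18 and 3.74 CPM in sgBap1-Veh, 23.5, 59.3 and 34.4 CPM in NTC-CCl4, and 75.0, 67.8 and 39.3 CPM in sgBap1-CCl4. Every CCl4 liver was above every vehicle liver. Hspb1 rose with CCl4 by 1.54 ± 0.48 on the log2 scale in NTC livers (2.91 times, adjusted p = 0.0273) and by 3.32 ± 0.54 in sgBap1 livers (10.0 times, adjusted p = 0.00112). In NTC livers the call for Hspb1 was lost without either NTC-Veh liver (adjusted p = 0.119 and 0.120), without NTC-CCl4 liver 2 (0.0549) or without sgBap1-CCl4 liver 2 (0.0511), and also with no filter on low counts (0.0832). Between genotypes the log2 difference was -1.14 ± 0.54 in vehicle livers (adjusted p = 0.447) and 0.64 ± 0.40 in CCl4 livers (adjusted p = 0.539). Of its 50-base stretches 50.1% occur elsewhere, mostly in Hsp25-ps1, which held at most 127 counts in any liver.

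Hspb8 moved the other way. It had 212 and 157 CPM in NTC-Veh, 251 and 230 CPM in sgBap1-Veh, 118, 143 and 122 CPM in NTC-CCl4, and 177, 161 and 158 CPM in sgBap1-CCl4. It was lowest in NTC-CCl4 and highest in sgBap1-Veh, and no liver of either CCl4 group reached the sgBap1-Veh livers. With CCl4 it fell by 0.53 ± 0.14 on the log2 scale in NTC livers (adjusted p = 0.00846) and by 0.54 ± 0.14 in sgBap1 livers (adjusted p = 0.00715). Between genotypes the differences were 0.38 ± 0.15 in vehicle (adjusted p = 0.329) and 0.37 ± 0.13 in CCl4 (adjusted p = 0.239). Without NTC-Veh liver 1 the fall in NTC livers was 0.30 and was not called (adjusted p = 0.131), and without sgBap1-Veh liver 1 the fall in sgBap1 livers was not called (adjusted p = 0.0577).

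Hsp90aa1 (chr12:110690605-110702728, minus strand) encodes the inducible HSP90 of the cytosol. It had 155 and 133 CPM in NTC-Veh, 157 and 164 CPM in sgBap1-Veh, 349, 282 and 316 CPM in NTC-CCl4, and 362, 354 and 357 CPM in sgBap1-CCl4. The CCl4 livers were far above the vehicle livers in both genotypes, and the genotypes lay close together. Hsp90aa1 rose with CCl4 by 1.13 ± 0.12 on the log2 scale in NTC livers (2.19 times, adjusted p = 2.9e-05) and by 1.15 ± 0.12 in sgBap1 livers (2.22 times, adjusted p = 2.46e-05), and both calls held whichever liver was left out. Its constitutive partner Hsp90ab1 had 971 ± 17.5 CPM in NTC-Veh (SD, n = 2) and 870 ± 25.8 CPM in NTC-CCl4 (SD, n = 3). The ratio of Hsp90aa1 to Hsp90ab1 per kilobase was therefore 0.103 to 0.129 in the vehicle livers and 0.240 to 0.307 in the CCl4 livers. Of the 50-base stretches of Hsp90aa1, 47.5% occur in other annotated genes, and the sum with 3 of these genes changed neither call.

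**Figure D3:**
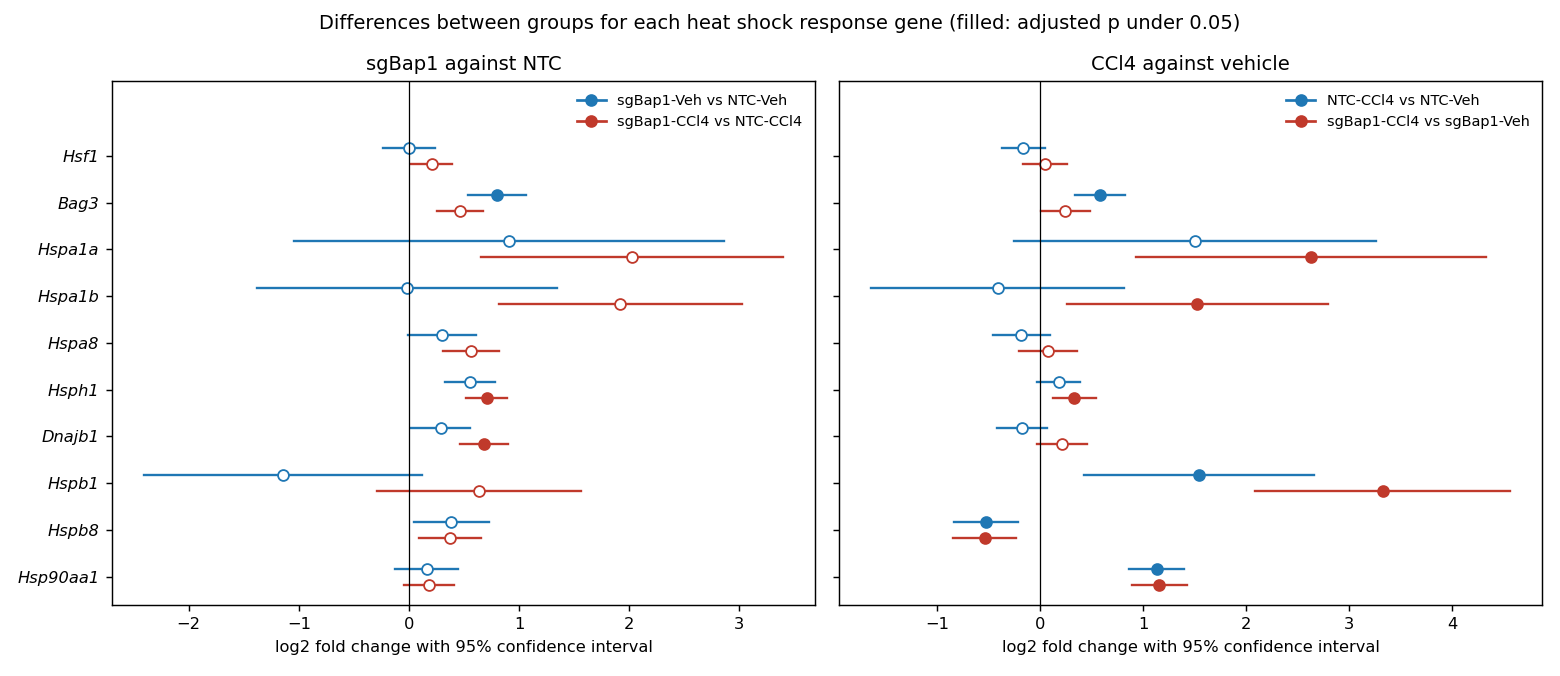
Log2 fold changes (points) with 95% confidence intervals (lines) of the 10 genes, left for sgBap1 against NTC in vehicle and in CCl4 livers, right for CCl4 against vehicle in NTC and in sgBap1 livers. Filled points have an adjusted p under 0.05; all 10 points for sgBap1-CCl4 against NTC-CCl4 lie above 0, and 2 of them (Hsph1 and Dnajb1) are filled.

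The comparisons of genotype asked whether Bap1 editing changed the response before and after injury. In vehicle livers 1 of the 10 genes, Bag3, was called higher in sgBap1, where 0.364% of all genes tested were called higher and 0.159% lower. In CCl4 livers 2 of the 10, Hsph1 and Dnajb1, were called higher, where 0.147% of all genes were called higher and 0.106% lower. The median log2 difference over the 10 genes was 0.30 in vehicle and 0.60 in CCl4 livers, beside 0.02 and 0.00 over all genes tested. In vehicle livers 7 of the 10 lay higher in sgBap1 with no overlap between livers, as did 21.7% of all genes, and Hspb1 lay lower. In CCl4 livers 9 of the 10 lay higher with no overlap, as did 10.1% of all genes. Leaving out sgBap1-CCl4 liver 2, of the higher group, could only keep or raise that count, so it was no check on it. Of the genes called, Hsph1 had the near-match element in the sequence shown above, and Bag3 and Dnajb1 had none in their windows. The calls rest on few livers: without NTC-Veh liver 1, NTC-Veh liver 2, sgBap1-Veh liver 1, NTC-CCl4 liver 2 or sgBap1-CCl4 liver 1 the vehicle count was 0, and without sgBap1-CCl4 liver 2 or 3 it was 2, with Hsph1 added. Without any 1 of the 3 NTC-CCl4 livers or without sgBap1-CCl4 liver 1 the CCl4 count was 0, and without sgBap1-CCl4 liver 2 it was 1 (Hsph1). By DESeq2's Wald test, the tool of the study, Bag3 and Hsph1 were called in vehicle livers and Bag3, Hspa1a, Hspa1b, Hspa8, Hsph1 and Dnajb1 in CCl4 livers, 6 of the 10, all higher in sgBap1. That test also called more of all genes, 548 in vehicle and 480 in CCl4 livers, against 89 and 43 by edgeR.

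Other genes also differed between genotypes, but not in the same way in both treatments. The 8 Kupffer cell and macrophage markers summed to 208 and 316 CPM in NTC-Veh and to 427 and 615 CPM in sgBap1-Veh; all 8 had a positive difference, 7 had an unadjusted p under 0.05 and 0 were called. The 7 T, NK and B cell markers summed to 8.19 and 4.05 CPM in NTC-Veh and to 12.3 and 10.7 CPM in sgBap1-Veh, with 7 of 7 positive, 4 at an unadjusted p under 0.05 and 0 called. In CCl4 livers the macrophage markers summed to 815 to 1080 CPM in NTC and 810 to 1021 CPM in sgBap1, with 2 of 8 positive. The T, NK and B cell markers there summed to 8.92 to 12.6 and 8.33 to 10.1 CPM, with 1 of 7 positive. The 5 bile duct cell markers summed to 192 to 248 CPM in NTC-CCl4 and to 272 to 370 CPM in sgBap1-CCl4, with 4 of 5 positive, 1 at an unadjusted p under 0.05 and 0 called. Most of that sum was Spp1, at 180 to 234 CPM in NTC-CCl4 and 260 to 352 CPM in sgBap1-CCl4. Krt19, Krt7, Epcam and Sox9 overlapped between these groups, with Sox9 at 8.93 to 10.9 and 8.44 to 9.55 CPM. In vehicle livers 2 of the 5 were positive. The 12 immediate early genes, which also answer to stress and handling, summed to 434 to 467 CPM in NTC-CCl4 and to 649 to 751 CPM in sgBap1-CCl4. All 12 had a positive difference there, 9 had an unadjusted p under 0.05 and 0 were called. In vehicle livers they summed to 221 to 290 CPM in NTC and 190 to 241 CPM in sgBap1, with 5 of 12 positive. Among 12 circadian clock genes, which follow the time of day, Per2 was called higher with sgBap1 in vehicle livers (adjusted p = 0.0172). Per1 was called higher in CCl4 livers (adjusted p = 0.00237 by edgeR). The 12 summed to 881 to 1073 CPM in NTC-Veh and 1161 to 1197 CPM in sgBap1-Veh. There 8 were positive and 4 had an unadjusted p under 0.05. In CCl4 livers they summed to 312 to 362 CPM in NTC and 361 to 450 CPM in sgBap1. Of these 12 differences 7 were positive and 2 had an unadjusted p under 0.05. The cold-inducible genes Cirbp and Rbm3 were called in neither comparison of genotype. Whether these had a part in the differences of the heat shock response genes was not tested.

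The comparisons with CCl4 asked what injury did within each genotype, and each shares its livers with a comparison of genotype. On the TMM scale 3 of the 10 genes rose in NTC livers (Bag3, Hspb1 and Hsp90aa1), where 27.5% of all genes rose, and Hspb8 fell on the TMM scale, where 26.3% of all genes fell. In sgBap1 livers 5 rose (Hspa1a, Hspa1b, Hsph1, Hspb1 and Hsp90aa1), where 29% of all genes rose, and Hspb8 fell, where 27.7% of all genes fell. The NTC counts are close to what those shares give for 10 genes. The median log2 difference of the 10 was 0.01 in NTC and 0.29 in sgBap1 livers, beside 0.03 and 0.04 over all genes. The directions after CCl4 depend on the scaling: TMM factors were 0.786 to 0.851 in vehicle and 1.08 to 1.24 in CCl4 livers, and with library size alone the median over all genes became 0.50 in NTC and 0.52 in sgBap1 livers. On that scale Hsf1, Hspa1b, Hspa8 and Dnajb1 turned from lower to higher in NTC-CCl4, and the fall of Hspb8 was no longer called in either genotype (-0.05 and -0.06). With library size alone 5 of the 10 were called higher in NTC livers, with Hsf1 (0.31, adjusted p = 0.0363) and Hsph1 (0.65, adjusted p = 0.00152) added, and 0 lower. In sgBap1 livers 9 of the 10 were called higher on that scale, with Hsf1 (0.52, adjusted p = 0.00252), Bag3 (0.72, adjusted p = 0.00089), Hspa8 (0.56, adjusted p = 0.0043) and Dnajb1 (0.70, adjusted p = 0.00176) added, and 0 lower. Of all genes called with library size alone, 80.7% were higher in NTC and 78.5% in sgBap1 livers, against 51.1% and 51.2% with TMM. The counts of 5 and 9 thus moved together with all genes, and the share of all genes called higher on that scale is not given here. Hspb1 and Hsp90aa1 kept their rise on every scale tried. The 8 macrophage markers summed to 810 CPM or more in each CCl4 liver, and their part in these changes was not tested.

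The interaction asked whether the CCl4 response differed by genotype. By edgeR 0 of the 10 genes were called, as were 0% of all genes tested, while 1796 genes had an unadjusted p under 0.05 and DESeq2's Wald test called 406, with 0 of the 10 among them. The 10 genes included 3 with an unadjusted p under 0.05. These were Dnajb1, with an interaction of 0.39 ± 0.15 on the log2 scale (adjusted p = 0.405 by edgeR), Hspb1 with 1.78 ± 0.67 (adjusted p = 0.409) and Hspa1b with 1.94 ± 0.75 (adjusted p = 0.421). Hsp90aa1 had 0.02 with a 95% confidence interval from -0.34 to 0.39.

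The rest of the chaperone network was described from 7 lists holding 60 genes, 56 of them tested. Between genotypes 0 of the 56 were called in either treatment, with a median log2 difference of 0.02 in vehicle and 0.11 in CCl4 livers. In CCl4 livers the unadjusted p was under 0.05 for 4 of the 11 genes of HSP90 and its cochaperones and 3 of 8 other J-domain proteins. The same held for 3 of 8 subunits of the chaperonin TRiC, 2 of 4 other small heat shock proteins and 3 of 16 other HSP70 and HSP110 genes and cofactors. It held for 0 of the mitochondrial chaperones and of the heat shock factors and binding proteins. In vehicle livers it held for 2 of the 11, and for 0 or 1 in each other list. Over all 17015 genes it held for 2288 in CCl4 and 2139 in vehicle livers. With CCl4, 12 of the 56 rose and 18 fell in NTC livers on the TMM scale, and 34 rose and 3 fell with library size alone. In sgBap1 livers 16 rose and 16 fell on the TMM scale, and 34 rose and 4 fell with library size alone. Of all genes, 27.5% rose and 26.3% fell in NTC livers on the TMM scale, and 29% and 27.7% in sgBap1 livers. The TMM counts for the 56 genes are close to what those shares give. With library size alone the share of all genes is not given here.

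Among those lists, 4 of 5 mitochondrial chaperones were lower on the TMM scale with CCl4 in NTC and in sgBap1 livers, including Hspd1, the mitochondrial HSP60, which fell by 0.58 ± 0.12 on the log2 scale in NTC livers (adjusted p = 0.00177), and its partner Hspe1 (-0.66 ± 0.11, adjusted p = 0.000465). Of the 8 other J-domain proteins, 4 were lower in NTC and 5 in sgBap1 livers and 0 were higher. Dnaja1, a cofactor of cytosolic HSP70, fell by 0.43 ± 0.10 in NTC livers (adjusted p = 0.00512). Of the heat shock factors and their binding proteins, 4 of the 4 tested were lower in NTC livers, with Hsf4 at -1.10 ± 0.23 (adjusted p = 0.00210) and Hsf2 at -0.46 ± 0.15 (adjusted p = 0.0255), and 2 of the 4 in sgBap1 livers; with library size alone 1 was higher and 1 lower in each genotype. Of HSP90 and its cochaperones, Stip1, which passes clients from HSP70 to HSP90, rose by 0.62 ± 0.09 in NTC livers (adjusted p = 0.000249) and Fkbp4, an immunophilin of steroid receptor complexes, fell by 0.61 ± 0.11 (adjusted p = 0.000908). On the TMM scale 3 of the 11 were higher and 3 lower in each genotype, while with library size alone 7 were higher in NTC livers, 8 in sgBap1 livers and 0 lower in either. The falls depend on the scaling: with library size alone 0 mitochondrial chaperones and 0 J-domain proteins were called lower in NTC livers, Hspd1 and Hspe1 were at -0.11 and -0.18, Dnaja1 at 0.04 and Fkbp4 at -0.14, and Hsf4 remained lower (-0.62, adjusted p = 0.0280 by edgeR). In sgBap1 livers 0 J-domain proteins but 2 mitochondrial chaperones remained lower on that scale. These were Trap1 (-0.20, adjusted p = 0.0413 by edgeR) and Hspe1 (-0.26, adjusted p = 0.0324).

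Of the 16 other HSP70 and HSP110 genes and cofactors, 5 rose and 3 fell in NTC livers, and 5 rose and 2 fell in sgBap1 livers, against 10 higher and 2 lower and 11 higher and 1 lower with library size alone. Hspa4l, a relative of Hsph1, rose by 0.92 ± 0.12 in sgBap1 livers (adjusted p = 8.24e-05), and Bag4, a relative of Bag3, fell by 1.32 ± 0.10 in NTC livers (adjusted p = 3.68e-06). Among the 8 subunits of TRiC, the chaperonin that folds actin and tubulin, 2 rose in NTC and 5 in sgBap1 livers and 0 fell (8 rose in each with library size alone), with Cct7 up by 0.30 ± 0.08 in NTC livers (adjusted p = 0.0117). The other small heat shock protein Cryab rose by 0.89 ± 0.23 in NTC livers (adjusted p = 0.00725) and by 1.24 ± 0.23 in sgBap1 livers (adjusted p = 0.000955). The rises of Hspa4l, Cct7 and Cryab were also called with library size alone, as was the fall of Bag4 in NTC livers (-0.85, adjusted p = 7.72e-05 by edgeR).

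The chaperones of the endoplasmic reticulum, which answer to the unfolded protein response rather than to HSF1, were set beside them. Of 13, 12 rose with CCl4 in NTC and 13 in sgBap1 livers, with median log2 differences of 0.81 and 0.89, and 0 were called between genotypes. Hspa5 (BiP), the HSP70 of that compartment, had 483 ± 94.1 CPM in NTC-Veh (SD, n = 2), 542 ± 14.8 CPM in sgBap1-Veh (SD, n = 2), 1196 ± 209 CPM in NTC-CCl4 (SD, n = 3) and 1498 ± 67.3 CPM in sgBap1-CCl4 (SD, n = 3). The near-match heat shock element was in 0 of the 11 endoplasmic reticulum chaperones with a promoter window. It was in 4 of 8 other J-domain proteins, 2 of 4 mitochondrial chaperones and 3 of 10 genes of HSP90 and its cochaperones. Of the other small heat shock proteins 2 of 5 had it, and of the TRiC subunits 2 of 7. None was found in 13 other HSP70 and HSP110 genes and cofactors or in 3 heat shock factors and binding proteins. The exact words were in 2 mitochondrial chaperones and 1 J-domain protein.

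**Figure D4:**
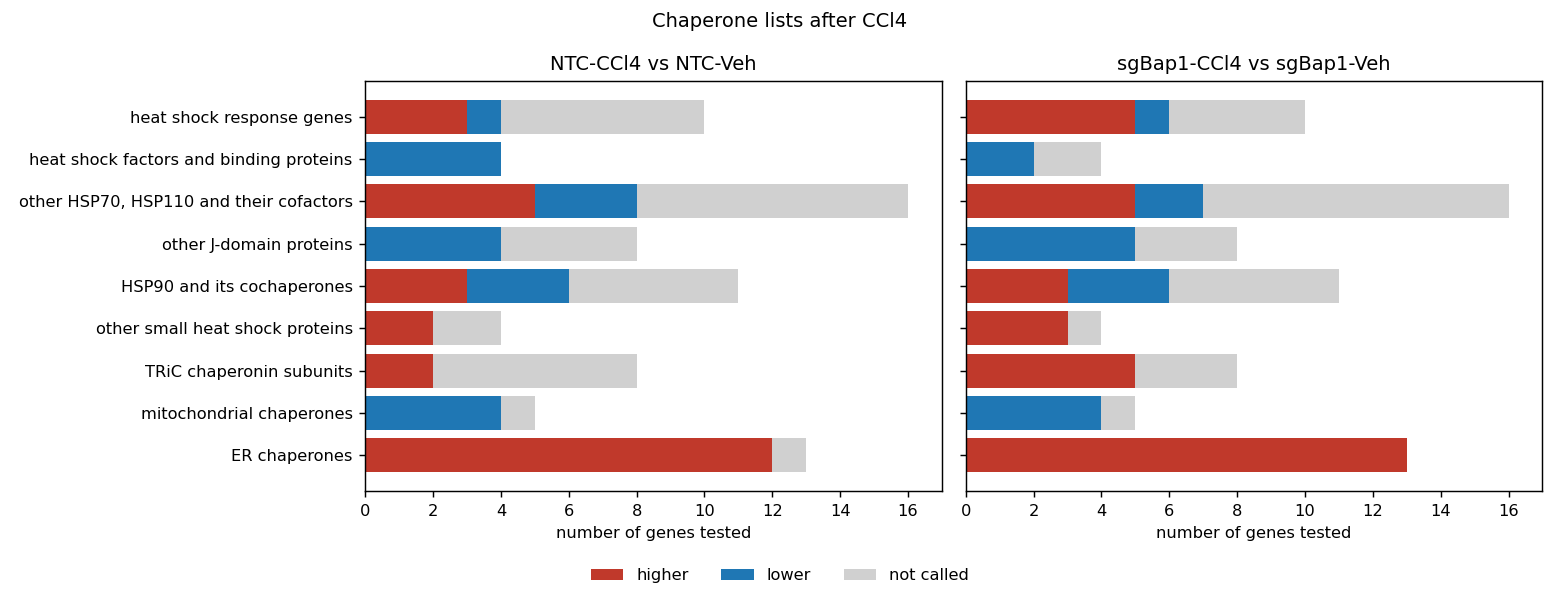
Number of genes tested in each chaperone list that were called higher, called lower or not called with CCl4 (edgeR, adjusted p under 0.05), left in NTC and right in sgBap1 livers. All 13 endoplasmic reticulum chaperones rose in sgBap1 livers and 12 in NTC livers. On the TMM scale 4 of the 5 mitochondrial chaperones were called lower in both genotypes. With library size alone 0 of them were called lower in NTC and 2 in sgBap1 livers.

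Single livers differed within groups. Liver 2 of sgBap1-CCl4, which held the fat cell markers, had the highest value of the 10 livers for 6 of the 10 genes, where it was highest for 18.1% of all genes tested. Liver 1 of NTC-CCl4 had the lowest value for 5 of the 10. The share of all genes lowest in that liver was not counted, so this is not read as a trait of the 10 genes. As a description over the 10 livers, which include the group differences, the correlation of a gene's log2 CPM with the mean of the other chaperone members was 0.96 for Hsph1, 0.89 for Hspa1a, 0.85 for Dnajb1, 0.82 for Hspa1b and Bag3 and 0.77 for Hspa8. It was 0.40 for Hsp90aa1, 0.38 for Hspb1 and 0.03 for Hspb8. After each group's mean was removed it was 0.88 for Hsph1 and -0.41 for Hsp90aa1.

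**Figure D5:**
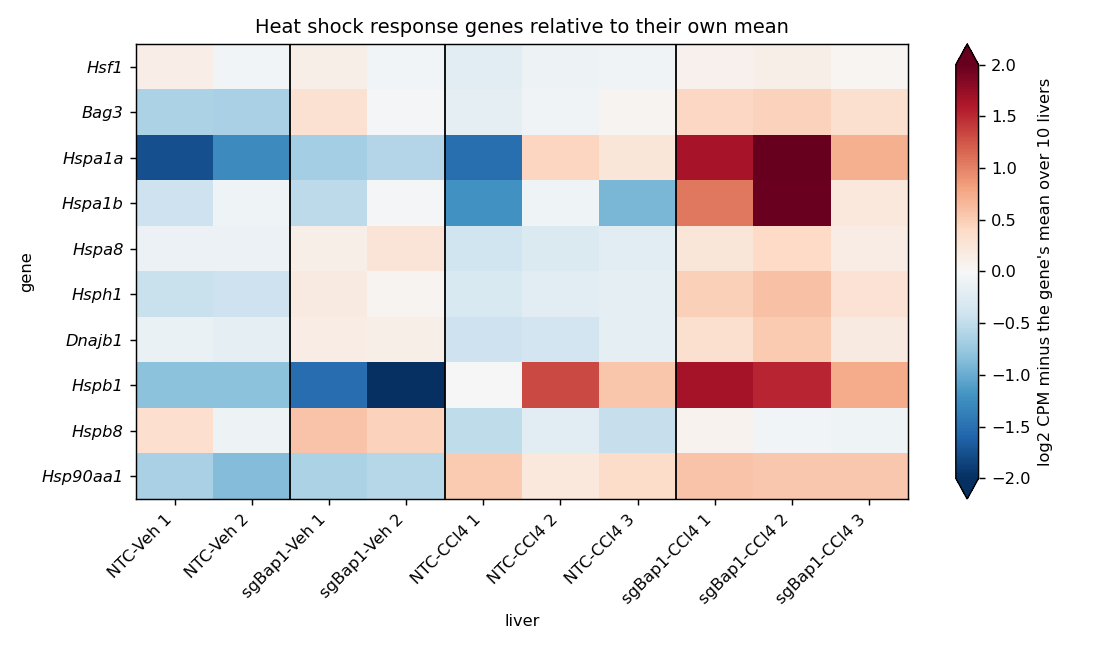
Log2 CPM of each heat shock response gene in each liver, as the difference from that gene's mean over the 10 livers (colour scale from -2 to 2, values beyond it shown at its ends). The 3 sgBap1-CCl4 livers are red for Hspa1a and Hspa1b, liver 2 most of all, while Hspb8 is lowest in the NTC-CCl4 livers and Hsp90aa1 separates CCl4 from vehicle livers.

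Outside the members, the genes whose log2 CPM was most like the mean of the 9 chaperone members over the 10 livers were Trappc4 (r = 0.96), Lrrc47 (0.94), Zbtb40 (0.92), Zfp180 (0.92) and Rspo3 (0.92), out of 12018 candidates averaging 100 counts or more per liver. Trappc4 had 19.2 ± 0.512 CPM in NTC-Veh (SD, n = 2) and 26.1 ± 1.70 CPM in sgBap1-CCl4 (SD, n = 3). With group means removed they were Actg1 (r = 0.99), Ppp1r15a (0.98), Srf (0.98), Itgam (0.96) and Ncdn (0.96). These values share libraries and their scaling with the members, and they are given as a description.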

How the data were processed

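Polyadenylated RNA of 10 livers was made into stranded libraries (TruSeq Stranded mRNA) and sequenced as paired reads of 50 bases. The authors aligned reads with STAR 2.7.6a to GRCm38 and deposited Salmon 1.4.0 estimated counts per gene symbol, pooled over no livers; the library type given to Salmon was not given in the sources used here. Of the deposited estimated counts 9.22% were not whole, and all were rounded. Depth was 33047900 to 52199900 counts per liver, and intervals cover the spread between livers. The labels number the livers without tying them to animals, so p-values measure the spread between these samples.

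Genes were filtered with filterByExpr and scaled by TMM, and 4 groups were fitted in 1 model with edgeR 4.0.16 (quasi-likelihood, robust, R 4.3.3, limma 3.58.1), with Benjamini-Hochberg adjustment and a threshold of 0.05. SE was worked back from the test, as the absolute log2 difference divided by the square root of the quasi-likelihood F statistic. The confidence intervals rest on that SE, and log2 CPM used a prior count of 2. The fit was tested on simulated data. Gene positions, exon lengths and shared 50-base stretches came from GENCODE vM21, while the authors counted on vM25 (both GRCm38), so per-kilobase levels and shared percentages rest on the older models, and promoters from RefSeq GRCm38.p6. Same-numbered livers did not deviate together (correlations of -0.149 to 0.102), so numbers were not treated as pairs. No liver pair agreed within counting noise. The members and lists were chosen with earlier results of these data known. All 10 members are named, and from each chaperone list at most the 4 called genes of smallest p in a comparison; Per1, Per2, Cirbp, Rbm3 and Adipoq were named after their values were seen. Alternatives were DESeq2 1.42.0 size factors and Wald test, library size alone, other filters, a replicate block, only the groups compared, each liver left out, a prior count of 0.5 and, chosen after seeing the data, 1 common dispersion and sums with near-identical genes.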

Additional observations from a re-analysis of the deposited data

How the results depend on the processing

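The number of heat shock response genes called was 1 between genotypes in vehicle livers (Bag3) and 2 in CCl4 livers (Hsph1 and Dnajb1). In vehicle livers it became 2 with DESeq2 size factors, with no filter and with DESeq2's Wald test, and 0 with library size alone and with only the groups compared. In CCl4 livers it became 1 with library size alone and with only the groups compared, 3 with no filter and 6 with the Wald test. With the replicate number as a block it was 0 in both comparisons, with Bag3 in vehicle at 0.80 (adjusted p = 0.0866 by edgeR), Hsph1 in CCl4 at 0.70 (adjusted p = 0.0542) and Dnajb1 in CCl4 at 0.68 (adjusted p = 0.0766), and over all genes 1 and 3 were called; the numbers were not found to pair the livers. With CCl4 the counts were 4 in NTC and 6 in sgBap1 livers, and they became 5 and 9 with library size alone, 3 and 4 with no filter, 5 and 6 with the Wald test, and 4 and 5 with only the groups compared. By edgeR with TMM, 27.5% of all genes rose with CCl4 and 26.3% fell in NTC livers, and 29% and 27.7% in sgBap1 livers. The Wald test called 9008 genes in NTC and 9457 in sgBap1 livers, where 17015 were tested. For the other settings the count over all genes with CCl4 is not given here. The counts with CCl4 are therefore not read as a trait of the heat shock response genes. Over all genes tested the vehicle count was 89 and became 47 with library size alone, 177 with no filter, 548 with the Wald test and 35 with only the groups compared. The CCl4 count was 43 and became 113 with no filter and 480 with the Wald test. The interaction count was 0 and became 8 with library size alone, 103 with no filter and 406 with the Wald test. With 1 liver left out at a time, the heat shock response genes called numbered 0 to 2 in both genotype comparisons, 2 to 5 with CCl4 in NTC livers (2 without NTC-Veh liver 1) and 3 to 6 in sgBap1 livers (3 without sgBap1-Veh liver 2). Over all genes the range was 0 to 150 in vehicle, 1 to 49 in CCl4 and 0 to 12 for the interaction; the highest vehicle and interaction counts came without sgBap1-CCl4 liver 2. Directions turned with library size alone in NTC livers after CCl4, to 0.31 for Hsf1 (adjusted p = 0.0363 by edgeR), 0.05 for Hspa1b, 0.29 for Hspa8 and 0.30 for Dnajb1. The share of called genes that were higher then moved from 51.1% to 80.7% in NTC and from 51.2% to 78.5% in sgBap1 livers. They also turned for the interaction of Hspb8 with no filter (0.01), and on summing Hspa1a with Hspa1b (0.06 between genotypes in vehicle for Hspa1b, -0.19 with CCl4 in NTC livers for Hspa1a). With 1 liver left out they turned for values near 0: Hspa1b between genotypes in vehicle (-0.28 to 0.21), Hsf1 with CCl4 in sgBap1 livers (-0.04 to 0.13), and the interactions of Hspb8 (-0.24 to 0.19) and Hsp90aa1 (-0.09 to 0.13). The cause of these moves was not tested. Of 415 values under other settings 381 kept direction and side of the threshold, as did 455 of 500 with 1 liver left out. Groups of 2 or 3 livers limit every comparison, and Hspa1a, under 3 CPM in the 7 other livers, was measured least precisely.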
